A study of Mus musculus with 16 samples.

Results

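Isolated loci are genes that lie alone on their chromosome, far from any protein-coding neighbour. They were chosen by position only, from the loci given in the deposited gene tables: protein-coding rows on the 19 autosomes, with a locus shorter than 200000 bp that overlaps no other protein-coding locus and is at least 100000 bp from the nearest one on each side. Of 19247 autosomal protein-coding loci, out of 23996 genes in each table, 713 met this rule, which is 3.70%. No expression value entered the choice.

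The expression values came from RNA-Seq of mouse embryonic fibroblasts (MEFs, embryonic day 13.5), hepatocytes purified from mice of 6 weeks and embryonic stem (ES) cells, all of the C57BL/6 strain. All cells, controls included, carried floxed Ssu72 alleles, in which loxP sites flank exon 1. Control cells, which the labels name WT, were infected with an adenovirus that expresses luciferase (Ad-Luc), and depleted cells, named Ssu72 KO, with one that expresses Cre recombinase (Ad-Cre). There were 16 samples, with 3 per group in MEFs and hepatocytes and 2 per group in ES cells, but the tables used here hold 1 pooled FPKM per group (fragments per kilobase of transcript, scaled to the mapped fragments of a library). So every level below is the authors' value for a whole group, the spread between samples and the read depth are unknown, and no test between groups could be made. A change means an Ad-Cre to Ad-Luc ratio past 1.5-fold in a locus with at least 1 FPKM in either group.

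Ssu72 is a phosphatase of the carboxy-terminal domain of RNA polymerase II. In yeast it acts with the machinery that cleaves and ends transcripts. For the mammalian protein, the authors of these data report binding mainly at promoters and propose a role in elongation rather than in polyadenylation. A polymerase that runs past the end of a gene can enter the next gene on the same strand, and close genes can share promoter regions. Loci with long intergenic flanks lie farther from such neighbours, and in mammals many of them encode developmental transcription factors and signaling molecules, whose distant enhancers lie in the surrounding gene-poor DNA.

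Ssu72 itself was lower in all Ad-Cre groups, as the labels say. MEFs had 22.7 FPKM with Ad-Luc and 3.69 FPKM with Ad-Cre, hepatocytes had 26.0 and 5.12 FPKM, and ES cells, with the smallest relative difference, had 99.2 and 44.7 FPKM. Each cell type expressed its own markers. All 7 fibroblast markers, all 7 hepatocyte markers and all 7 pluripotency markers reached 1 FPKM in their own cell type. The markers changed too: 4 of 7 fibroblast markers were lower in Ad-Cre infected MEFs, where their summed level went from 12486 to 6310 FPKM, 4 of 7 hepatocyte markers were lower in Ad-Cre infected hepatocytes (from 6298 to 5261 FPKM in sum), and 0 of 7 pluripotency markers passed 1.5-fold in ES cells. The fibroblast sum rests mostly on Col1a1 (7076 and 3612 FPKM), while Thy1, Twist1 and Prrx1 stayed within 1.5-fold. The hepatocyte sum rests mostly on Alb (5207 and 4647 FPKM), which stayed within 1.5-fold. In these bulk samples, fewer cells of a type and less RNA per cell cannot be told apart.

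Isolated loci passed 1.5-fold in the same direction in more than 1 cell type in 6 cases, Bdnf upward and Slc16a7, Sorl1, Gda, Arrdc3 and Cxcl12 downward, all in MEFs and hepatocytes. The shared falls are 7.58% of those in MEFs and 22.7% of those in hepatocytes, against 9.87% and 15.7% over all loci. The shared rise is 4.55% and 4% of the rises, against 23.5% and 31% over all loci. The promoters of these loci are printed only because they passed 1.5-fold the same way in 2 cell types. RefSeq promoter sequences (GRCm38.p6, the patch release of the mm10 build, from 250 bases before to 50 bases after the outermost annotated start) matched 513 of the 713 loci, which at 71.9% is too few for a comparison of base composition between isolated and other loci, and Slc16a7 is named only. Capitals mark matches, on either strand, to CCAAT, the box bound by NF-Y, and to GGGCGG, the GC box bound by Sp1. Searches for TATAAA and for TGANTCA, the AP-1 site, gave no match in these 5 windows. Bdnf lies on chr2:109674450-109674749, plus strand, Sorl1 on chr9:42124248-42124547, minus strand, Gda on chr19:21472612-21472911, minus strand, Arrdc3 on chr13:80883134-80883433, plus strand, and Cxcl12 on chr6:117168285-117168584, plus strand.
Bdnf: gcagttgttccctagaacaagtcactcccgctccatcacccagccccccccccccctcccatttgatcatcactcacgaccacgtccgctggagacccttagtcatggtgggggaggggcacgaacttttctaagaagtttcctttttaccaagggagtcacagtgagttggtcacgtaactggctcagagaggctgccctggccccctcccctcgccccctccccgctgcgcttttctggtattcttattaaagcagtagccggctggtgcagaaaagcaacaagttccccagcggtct
Sorl1: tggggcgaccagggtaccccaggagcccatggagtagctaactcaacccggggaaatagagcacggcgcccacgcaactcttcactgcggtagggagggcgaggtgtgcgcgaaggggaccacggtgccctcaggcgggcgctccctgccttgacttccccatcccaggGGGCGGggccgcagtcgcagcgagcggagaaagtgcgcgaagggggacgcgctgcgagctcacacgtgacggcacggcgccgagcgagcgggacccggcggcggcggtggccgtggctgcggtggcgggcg
Gda: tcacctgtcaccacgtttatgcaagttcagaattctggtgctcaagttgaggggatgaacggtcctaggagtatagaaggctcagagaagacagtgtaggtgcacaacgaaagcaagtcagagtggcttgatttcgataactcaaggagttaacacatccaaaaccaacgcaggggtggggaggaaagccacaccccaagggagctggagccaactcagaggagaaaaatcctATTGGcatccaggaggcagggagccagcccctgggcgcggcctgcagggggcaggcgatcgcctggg
Arrdc3: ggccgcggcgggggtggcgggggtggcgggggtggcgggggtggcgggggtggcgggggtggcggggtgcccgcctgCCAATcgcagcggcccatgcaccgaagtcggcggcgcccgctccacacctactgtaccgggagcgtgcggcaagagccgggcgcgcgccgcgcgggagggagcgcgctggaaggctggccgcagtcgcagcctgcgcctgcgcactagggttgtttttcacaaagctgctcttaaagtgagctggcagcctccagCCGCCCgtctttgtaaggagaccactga
Cxcl12: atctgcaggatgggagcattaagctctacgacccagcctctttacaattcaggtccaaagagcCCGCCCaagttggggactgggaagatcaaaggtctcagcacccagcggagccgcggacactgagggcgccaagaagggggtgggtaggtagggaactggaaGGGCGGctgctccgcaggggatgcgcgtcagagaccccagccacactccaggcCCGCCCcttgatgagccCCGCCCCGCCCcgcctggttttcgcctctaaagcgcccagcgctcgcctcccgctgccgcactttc

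Of these windows, Cxcl12 held 5 GC boxes, of which 2 overlap, Arrdc3 held 1 CCAAT and 1 GC box, Sorl1 held 1 GC box, Gda held 1 CCAAT and Bdnf held none of the 4 motifs. Over the 14349 matched autosomal promoters of the same length, CCAAT was present in 38.5%, GGGCGG in 49.4%, TATAAA in 12.9% and TGANTCA in 7.14%. The windows of Arrdc3 and Sorl1 were rich in CpG, with 35 and 37 CpG dinucleotides, against 20 in Cxcl12, 11 in Bdnf and 9 in Gda.

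The 713 loci stood on all 19 autosomes, with 13 to 66 per chromosome. Their median smaller gap was 176188 bp, against 7501 bp for the 16258 other loci that overlap no neighbour. They were also longer, with a median span of 32456 bp against 15601 bp for the other loci under 200000 bp that overlap no neighbour. The widest smaller gaps belonged to Pcdh10 (3619456 bp), Epha7 (2466478 bp), Flrt2 (2417086 bp), Pcdh17 (2119262 bp) and Gm597 (2022089 bp). The first 4 of these encode cell surface proteins that guide contacts between cells, namely 2 protocadherins, an ephrin receptor and a leucine-rich repeat protein. Just inside the limit were Vmn1r155 (100009 bp) and Nufip1 (100025 bp), and just outside it Foxo6 (99717 bp) and Gm5150 (99582 bp). Of the 713, 371 had another isolated locus as a neighbour, and 569 (79.8%) met the rule against the protein-coding genes of GENCODE vM21.

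By symbol, 74 of the 713 isolated loci (10.4%) fell in the list of transcription factor families, against 3.50% of the other autosomal protein-coding loci. Cell adhesion and axon guidance genes made up 3.09% against 1.13%, secreted signals and their antagonists 2.81% against 0.89%, and receptors 3.23% against 1.35%. Solute carriers (2.10% against 1.82%), ion channels (1.26% against 0.96%) and extracellular matrix genes (0.701% against 0.923%) had more similar shares, and signal feedback regulators made up 0.701% against 0.297%. The lists rest on symbols and are incomplete, and Npy, a neuropeptide, was caught by the receptor pattern.

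Fewer isolated loci than other loci were expressed in all 3 cell types. All 3 cell types had at least 1 FPKM of 244 isolated loci (34.2%, against 48.7% of the others), 86 reached it in 2 cell types, 126 in 1, and 257 (36.0%, against 31.5%) in none. The level of 1 FPKM was reached by 408 isolated loci in MEFs (57.2%, against 59.1% of the others), by 316 in hepatocytes (44.3%, against 57.1%) and by 306 in ES cells (42.9%, against 57.8%). Their levels were somewhat lower, with a median mean level of 8.66 FPKM against 11.1 FPKM in MEFs, 9.33 against 12.6 FPKM in hepatocytes and 8.12 against 11.7 FPKM in ES cells. The remaining loci, under 1 FPKM in both groups of a cell type, enter no count of changes in it. No member that reached 1 FPKM was at 0 in a group.

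The isolated loci with high levels differed by cell type. In MEFs, the integrin subunit Itgb1 stood at 669 FPKM in Ad-Luc and 683 FPKM in Ad-Cre cells, the matrix protein gene Thbs2 (thrombospondin 2) at 784 and 507 FPKM, Ptgs2 (cyclooxygenase-2) at 400 and 331 FPKM and Anxa1 (annexin A1) at 337 and 294 FPKM. In the same cells Tm4sf1, a small membrane protein gene, stood at 236 and 265 FPKM, and Cdh11, the mesenchymal cadherin, at 295 and 196 FPKM. Of these 6, Thbs2 and Cdh11 passed 1.5-fold, both downward. In hepatocytes Apob, the structural protein of lipoproteins, stood at 316 and 300 FPKM and Itgb1 at 240 and 280 FPKM. Shfm1, a proteasome subunit gene, stood at 186 and 185 FPKM and the amino acid transporter Slc38a4 at 152 and 135 FPKM. These named loci stayed within 1.5-fold, but not all strongly expressed ones did. Of 9 isolated loci with a mean of 100 FPKM or more in hepatocytes, 2 were lower (22.2%, 2.81 to 60%), against 6.80% of others. In the same bin 1 was higher (11.1%, 0.281 to 48.2%), against 3.88%. In ES cells Shfm1 stood at 528 and 650 FPKM, Odc1, the first enzyme of polyamine synthesis, at 452 and 478 FPKM, Cox7c of the respiratory chain at 348 and 340 FPKM, the pluripotency factor Sox2 at 233 and 242 FPKM, the translocon subunit Sec61g at 212 and 248 FPKM and the chromatin protein gene Hmgb1 at 189 and 197 FPKM, and none of these passed 1.5-fold.

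Depletion of Ssu72 in MEFs was followed by lower levels at many isolated loci. Of 408, 66 were lower by more than 1.5-fold, which is 16.2% (95% exact Clopper-Pearson interval 12.7 to 20.1%), and 22 were higher, which is 5.39% (3.41 to 8.05%). Over all 11366 autosomal protein-coding loci at 1 FPKM, 8.47% were lower and 7.66% were higher. The other loci, weighted so that each level bin held the same share as among the isolated loci, had 8.27% lower and 7.99% higher. The median log2 ratio was -0.07 (95% order-statistic interval -0.09 to -0.02) at isolated loci and 0.04 at the others, and the difference at equal level was -0.10 (-0.13 to -0.05, with the interval of the isolated loci). These intervals take loci as independent and cover neither the spread between samples nor reads.

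In hepatocytes, the isolated loci were balanced. Of 316, 25 were higher (7.91%, 5.19 to 11.5%) and 22 were lower (6.96%, 4.41 to 10.4%), against 6.07% and 5.54% of all 10908 loci and 7.40% and 5.93% of the others at equal level. The median log2 ratio was 0.04 (0.00 to 0.08), and the difference from others of equal level was 0.01 (-0.03 to 0.05). In ES cells, only 3 of 306 were higher (0.98%, 0.203 to 2.84%) and 0 were lower, for which the interval reaches 1.20%, against 1.87% and 0.535% of all 11027 loci. Here the median log2 ratio was -0.03 (-0.05 to -0.01) and the difference at equal level -0.04 (-0.06 to -0.01). In MEFs 232 of 408 isolated loci (56.9%) and in ES cells 179 of 306 (58.5%) had a ratio below 1, against 45.7% and 47.4% of the others. In hepatocytes 140 of 316 (44.3%) did, against 45.9%.

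**Figure D1:**
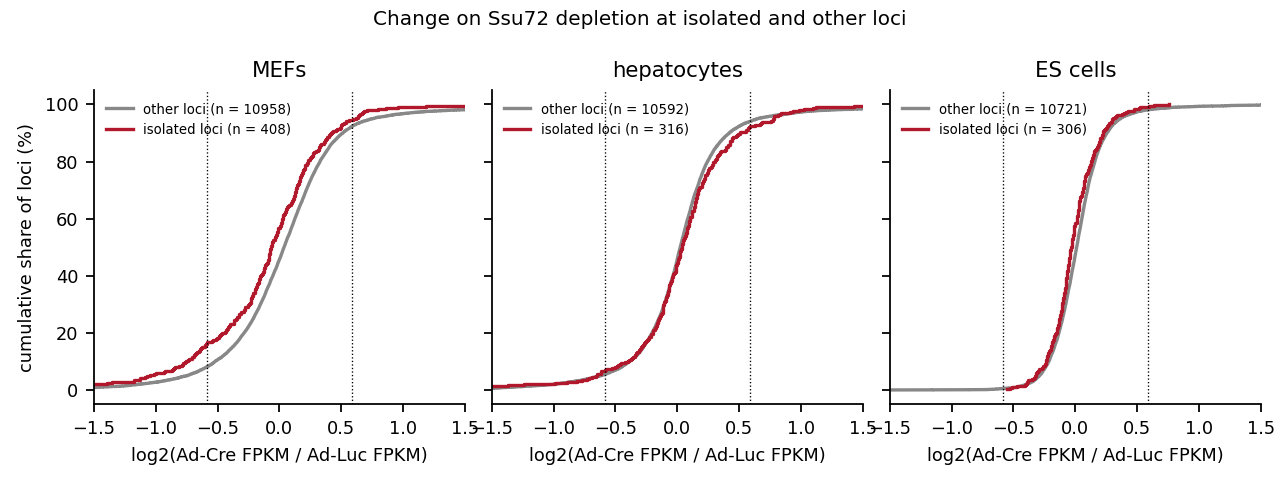
Cumulative share of loci (%) against the log2 ratio of Ad-Cre to Ad-Luc FPKM for isolated loci (red) and other autosomal protein-coding loci (grey) with at least 1 FPKM in MEFs, hepatocytes and ES cells. Dotted lines mark 1.5-fold, and the red curve lies to the left of the grey one in MEFs, where 16.2% of isolated loci were below the lower line.

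The share of lower loci in MEFs rose over classes set by the gaps on both sides, which were not matched for level or length. It was 5.97% (5.23 to 6.77%) of 3769 loci that overlap a neighbour, or lie within 1000 bp of one with both gaps under 100000 bp. With both gaps again under 100000 bp, it was 7.51% (6.64 to 8.44%) of 3410 with a smaller gap of 1000 to 10000 bp and 8.88% (7.61 to 10.3%) of 1814 with 10000 to 100000 bp. Where 1 side was open for at least 100000 bp it was 12.5% (11.0 to 14.1%) of 1841 loci. This class takes any shorter gap on the other side, so it includes loci with a close neighbour. The share was then 16.2% at isolated loci and 23.8% (16.0 to 33.1%) of the 105 loci with the same gaps but a span of at least 200000 bp. The share of higher loci went the other way, from 8.89% (8 to 9.84%) and 8.56% (7.65 to 9.55%) in the closest classes to 5.05% (4.10 to 6.15%) with 1 open side, 5.39% at isolated loci and 2.86% (0.593 to 8.12%) at the long ones. The median mean level in MEFs was 11.7 FPKM in the closest class, 8.66 FPKM at isolated loci and 3.86 FPKM at the long ones. For the shares of lower and of higher loci, the isolated loci and the class with 1 open side had overlapping intervals. In hepatocytes no such order appeared, with 4.38 to 7.60% lower in the classes up to isolated loci, and the 61 long loci had 1.64% lower (0.0415 to 8.80%). In ES cells the median log2 ratio ran from 0.02 (0.02 to 0.03) for overlapping or close loci through -0.01 (-0.03 to 0.00) with 1 open side to -0.03 at isolated and -0.14 (-0.19 to -0.09) at long loci, while few loci passed 1.5-fold.

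**Figure D2:**
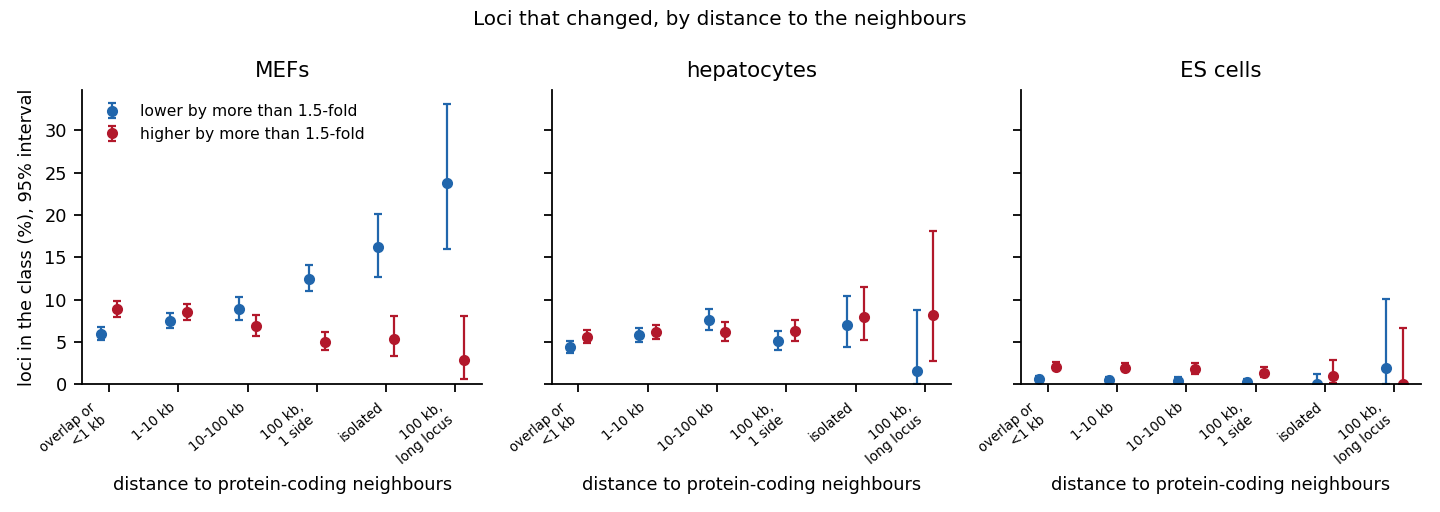
Share of loci (%) lower (blue) or higher (red) by more than 1.5-fold in Ad-Cre infected cells, by distance to the protein-coding neighbours, with 95% exact intervals as bars. In MEFs the blue points go from 5.97% in the closest class to 16.2% at isolated loci and the red points from 8.89% to 5.39%, while the last class (23.8% and 2.86%) has the gaps of isolated loci but a longer span, and in hepatocytes and ES cells the points stay under 10%.

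Among the isolated loci themselves, the shares in MEFs had overlapping intervals at all gap widths. Lower loci made up 17.2% (12.6 to 22.5%) of 239 with a smaller gap under 200000 bp, 13% (6.93 to 21.7%) of 92 with 200000 to 400000 bp and 16.9% (9.31 to 27.1%) of 77 with 400000 bp or more. Higher loci made up 3.35% (1.46 to 6.49%), 6.52% (2.43 to 13.7%) and 10.4% (4.59 to 19.4%) of the same groups, with overlapping intervals. In hepatocytes, 11 of 82 loci with 200000 to 400000 bp were higher (13.4%, 6.89 to 22.7%) and 1 was lower (1.22%, 0.0309 to 6.61%). With narrower gaps 11 of 187 were higher (5.88%, 2.97 to 10.3%) and 16 lower (8.56%, 4.97 to 13.5%). With wider gaps 3 of 47 were higher (6.38%, 1.34 to 17.5%) and 5 lower (10.6%, 3.55 to 23.1%). These intervals overlap and the shares followed no order with gap width, beside 6.07% higher and 5.54% lower over all loci.

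Longer loci had lower median ratios in MEFs and ES cells, among isolated and other loci alike. Hepatocytes showed no such order, with medians of 0.01 to 0.03 for other loci and -0.01 to 0.10 for isolated loci over the length classes. In MEFs the median log2 ratio of isolated loci was 0.00 (-0.05 to 0.12) below 20000 bp and -0.13 (-0.23 to -0.06) at 100000 to 200000 bp, while that of other loci went from 0.12 (0.11 to 0.14) to -0.08 (-0.11 to -0.06). The share of lower loci was above that of others in every length class, at 13% against 7.32% below 20000 bp, 14.9% against 7.16% at 20000 to 50000 bp, 17.1% against 7.91% at 50000 to 100000 bp and 20.9% against 10.1% above. With the others weighted to the same level and span, the MEF difference in medians was -0.08. The hepatocyte difference was 0.01 and that of ES cells -0.02. The ES value without span was -0.04, so the offset there was smaller among loci of like length.

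By level, the share of lower loci in MEFs was above that of others in each bin from 1 FPKM upward. Lower loci made up 22.9% (14.4 to 33.4%) of 83 isolated loci with a mean of 2 to 5 FPKM against 8.61% of others, 13.2% (7 to 21.9%) against 7.81% at 5 to 10 FPKM, 12.3% (5.80 to 22.1%) against 5.28% at 10 to 20 FPKM and 12.5% (5.88 to 22.4%) against 7.13% at 20 to 50 FPKM. At 50 to 100 FPKM the shares were 9.09% (1.12 to 29.2%) and 7.99%. Of the 21 isolated loci at 100 FPKM or more, 4 were lower (19%, 5.45 to 41.9%), against 9.90% of others. In this bin 0 were higher (0 to 16.1%), against 5.23% of others, and both shares of others lie inside these intervals. At 1 to 2 FPKM, 18.9% (7.96 to 35.2%) against 13.3% were lower and 5.41% (0.661 to 18.2%) against 19.4% were higher.

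**Figure D3:**
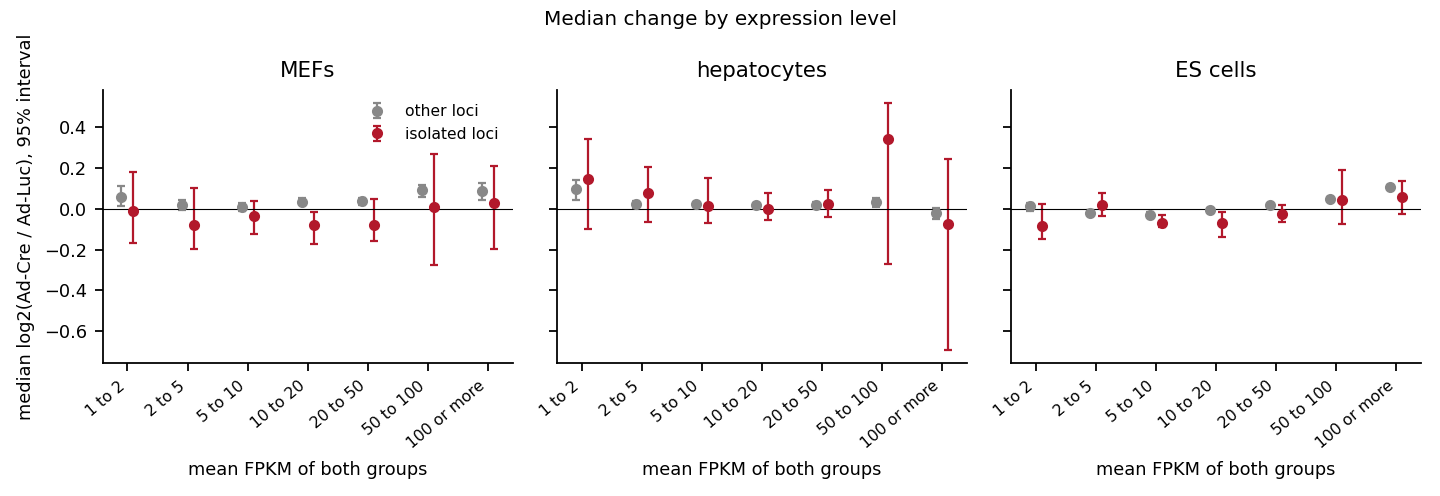
Median log2 ratio of Ad-Cre to Ad-Luc FPKM by mean level (FPKM) for isolated (red) and other loci (grey), with 95% order-statistic intervals. In MEFs the red medians are below the grey ones in all 7 level bins, most clearly at 10 to 20 FPKM, where the isolated median was -0.08 (-0.17 to -0.02) and that of others 0.03.

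The 8 largest falls in MEFs were at loci of different functions. A2m, the protease inhibitor alpha-2-macroglobulin, went from 1.26 to 0.239 FPKM (log2 ratio -2.40). Sfrp1, a secreted antagonist of Wnt signaling, went from 25.2 to 5.25 FPKM (-2.26), and it was the only one of the 8 largest falls above 20 FPKM in control cells. Ednrb, the endothelin B receptor, went from 2.12 to 0.571 FPKM (-1.89). Hpgd, the enzyme that inactivates prostaglandins, went from 1.40 to 0.395 FPKM (-1.83). The uncharacterised 3632451O06Rik went from 3.61 to 1.08 FPKM (-1.74), and Mme, the peptidase neprilysin, from 8.52 to 2.62 FPKM (-1.70). Fndc1, which encodes a protein with fibronectin type III domains, went from 10.9 to 3.59 FPKM (-1.60).

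Wt1, a transcription factor of mesothelial and kidney cells, went from 1.53 to 0.489 FPKM (-1.65). It is also 1 of the 4 mesothelial markers, which in MEFs all reached 1 FPKM: 3 were lower and 1 was higher, their sum going from 29.9 to 22.9 FPKM and Upk3b from 9.52 to 1.19 FPKM. The part of mesothelial cells in the falls was not tested.

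The 58 further falls had log2 ratios from -1.59 to -0.59, and in all 23 of the 66 passed 2-fold. They were not confined to weak genes, since 31 of the 66 stood at 10 FPKM or more in control cells and 8 at 50 FPKM or more, and they lay on all 19 autosomes. Col11a1, a fibrillar collagen of cartilage, went from 39.8 to 13.2 FPKM (-1.59), and Cxcl12, a chemokine of stromal cells, from 213 to 96.8 FPKM (-1.14).

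The rises in MEFs were fewer and mostly smaller. Hhip, which binds and restrains Hedgehog ligands, went from 1.16 to 4.99 FPKM (log2 ratio 2.10). The homeobox gene Nkx6-1 went from 0.341 to 1.10 FPKM (1.68). The deubiquitinase gene Otud1 went from 3.79 to 7.38 FPKM (0.96), and Kdr, the receptor of vascular endothelial growth factor, from 3.93 to 7.64 FPKM (0.96). Slc7a11, the cystine transporter, went from 7.58 to 13.8 FPKM (0.86), Fam84a from 0.900 to 1.58 FPKM (0.82) and Lrrc3b, a leucine-rich repeat protein gene, from 0.713 to 1.24 FPKM (0.80). Kdr is also 1 of the 5 endothelial markers, whose sum in MEFs went from 4.24 to 8.28 FPKM. Most of this sum is Kdr itself. The others were under 1 FPKM, with Pecam1 at 0.0999 and 0.269 FPKM and Cdh5 at 0.15 and 0.306 FPKM. Lyve1 stood at 0.0288 and 0.0483 FPKM, while Stab2 went the other way, at 0.0313 and 0.0205 FPKM. The part of endothelial cells was not tested. Of the 22 rises 3 passed 2-fold, Hhip and Nkx6-1 among them, and the 14 smallest had log2 ratios of 0.60 to 0.71.

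**Figure D4:**
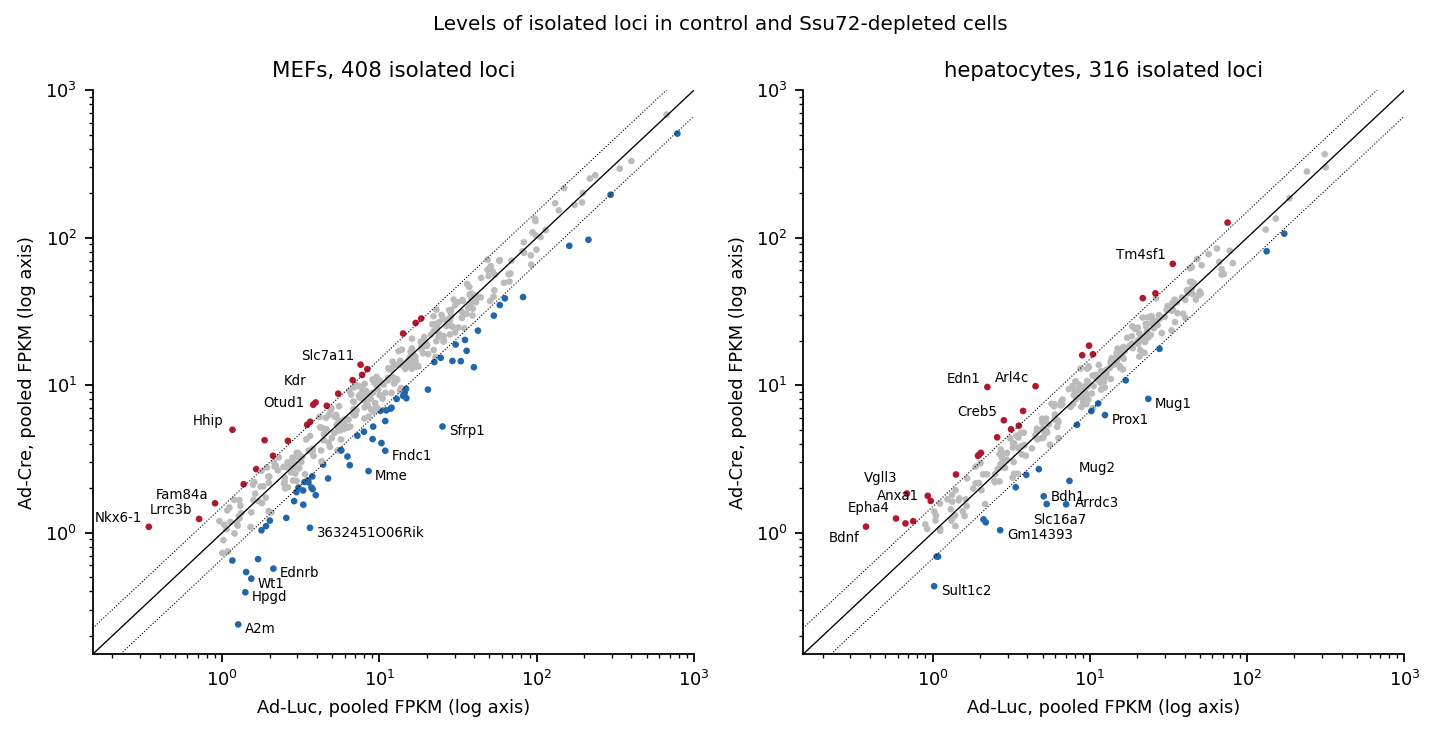
Pooled FPKM of each isolated locus in Ad-Cre (vertical) against Ad-Luc cells (horizontal), both on log axes, in MEFs and hepatocytes. Blue points are lower and red points higher by more than 1.5-fold (dotted lines), with names for some of the largest changes, and in MEFs the 66 blue points reach up to Thbs2 at 784 FPKM while no red point is above 50 FPKM.

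By gene class, the transcription factors among the isolated loci were close to other transcription factors in MEFs. Of 55 isolated ones, 2 were lower (3.64%) and 4 were higher (7.27%), against 4.09% and 8.64% of 440 others, and their median log2 ratio was 0.11 (-0.01 to 0.19) against 0.05. This class includes Sox2, Myc, Klf4 and Sox4. Myc, the growth regulator, went from 48.7 to 70.9 FPKM in MEFs (log2 ratio 0.54, within 1.5-fold) and from 75.1 to 126 FPKM in hepatocytes (0.75). Klf4 stood at 49.4 and 55.0 FPKM in MEFs and at 120 and 110 FPKM in ES cells, and Sox4 at 36.1 and 48.6 FPKM in MEFs, both within 1.5-fold.

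Of 17 cell adhesion and axon guidance loci in MEFs, 7 were lower (41.2%, 18.4 to 67.1%) and 0 were higher, with a median log2 ratio of -0.49 (-0.66 to -0.28). The 113 other loci of this class had a median of -0.31 (-0.39 to -0.19) with 23.0% lower, and the intervals overlap. Pcdh18, a protocadherin gene, went from 24.5 to 15.3 FPKM (-0.68), Cdh11 from 295 to 196 FPKM (-0.59) and Flrt2 from 91.7 to 75.8 FPKM (-0.28). Epha7, the locus with the second widest gap, went from 4.71 to 2.33 FPKM (-1.01), while the protocadherin loci Pcdh10 (1.97 and 1.40 FPKM) and Pcdh17 (2.62 and 2.03 FPKM), in deserts of similar width, stayed within 1.5-fold.

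The matrix list had only 4 isolated loci at 1 FPKM in MEFs. Thbs2 and Col11a1 were lower, whereas Efemp1, a fibulin gene (174 and 167 FPKM), and Has2, which makes hyaluronan (26.6 and 25.1 FPKM), stayed within 1.5-fold. Among 128 other matrix loci, 64 were lower (50%).

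Of 18 isolated loci for secreted signals and their antagonists in MEFs, 5 were lower (27.8%) and 2 were higher (11.1%), close to the 24.1% and 15.7% of 83 others. Cxcl12 was among the lower ones, while Inhba, an activin subunit (92.3 and 65.7 FPKM), and Bmp4 (41.3 and 40.5 FPKM) stayed within 1.5-fold. Of 11 receptor loci 2 were lower (18.2%) and 2 were higher (18.2%), the latter being Kdr and Npy, against 33.6% and 5.61% of 107 others. S1pr1, a receptor of sphingosine 1-phosphate, stood at 41.3 and 38.9 FPKM, Fgfr2, a fibroblast growth factor receptor, at 19.3 and 18.8 FPKM and the adhesion receptor Gpr125 at 15.9 and 13.6 FPKM. Kit, the stem cell factor receptor, was expressed in ES cells, at 22.0 and 19.6 FPKM, and was under 1 FPKM in MEFs.

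Of 9 solute carriers in MEFs, 4 were lower (44.4%, 13.7 to 78.8%) and 1 was higher (11.1%), against 9.90% and 8.33% of 192 others. The lactate transporter gene Slc16a1 went from 58.2 to 35.0 FPKM (-0.74) and Slc38a4 from 22.3 to 14.3 FPKM (-0.64), whereas the zinc transporter gene Slc39a10 stood at 13.6 and 13.9 FPKM. Among 52 other ion channel loci 13.5% were lower and 21.2% higher. Of the 4 isolated ones, Kcne4, a potassium channel subunit, went from 11.8 to 6.93 FPKM (-0.76), and Ano6, a lipid scramblase (50.5 and 37.2 FPKM), Kcnk2 (1.29 and 1.26 FPKM) and Trpc6 (0.960 and 1.20 FPKM) stayed within 1.5-fold. Among 40 other signal feedback regulators 2.50% were lower and 2.50% higher. Of the 4 isolated ones, Spry4, an inhibitor of receptor tyrosine kinase signaling, went from 7.24 to 4.55 FPKM (-0.67), and Spry2 (39.2 and 33.0 FPKM), Trib2 (17.0 and 13.3 FPKM) and Rgs2 (2.50 and 2.37 FPKM) stayed within 1.5-fold.

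In hepatocytes, the largest fall was at Arrdc3, an arrestin-domain gene that regulates receptor trafficking, which went from 7.06 to 1.56 FPKM (log2 ratio -2.18), and the monocarboxylate transporter gene Slc16a7 from 5.31 to 1.56 FPKM (-1.76). The murinoglobulin genes Mug2 and Mug1, protease inhibitors of mouse plasma, went from 7.41 to 2.25 FPKM (-1.72) and from 23.5 to 8.08 FPKM (-1.54). They neighbour each other with a gap of 117740 bp on chromosome 6 and are close copies, so that their reads may have been split between them. Bdh1, which interconverts ketone bodies, went from 5.09 to 1.77 FPKM (-1.53), Gm14393 from 2.69 to 1.04 FPKM (-1.37), and Sult1c2, a sulfotransferase gene, from 1.02 to 0.434 FPKM (-1.24). Prox1, a homeobox factor of liver development, went from 12.5 to 6.27 FPKM (-0.99), and the 14 further falls had log2 ratios from -0.89 to -0.59. Of the hepatocyte markers, 4 were lower in the same cells, and Apob, the only marker of the 7 that is an isolated locus, stayed within 1.5-fold. Their part in these falls was not tested.

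The rises in hepatocytes were led by Edn1, the vasoconstrictor endothelin-1, which went from 2.23 to 9.72 FPKM (log2 ratio 2.12). The neurotrophin gene Bdnf went from 0.377 to 1.10 FPKM (1.54), Vgll3, a cofactor of TEAD transcription factors, from 0.686 to 1.85 FPKM (1.43), and the small GTPase gene Arl4c from 4.51 to 9.84 FPKM (1.12). Epha4, an ephrin receptor, went from 0.585 to 1.25 FPKM (1.09), Creb5, a basic leucine zipper factor, from 2.84 to 5.78 FPKM (1.03), Tm4sf1 from 33.7 to 66.4 FPKM (0.98) and Anxa1 from 0.932 to 1.78 FPKM (0.93). Edn1 and Tm4sf1 are also expressed by endothelial cells. Of 5 endothelial markers, all reached 1 FPKM in hepatocytes, 1 was higher and the sum went from 13.9 to 20.1 FPKM. Of 4 mesothelial markers 2 were higher, Krt19 going from 11.3 to 33.2 FPKM and Msln from 1.48 to 3.25 FPKM. The other mesothelial markers, Upk3b and Wt1, were under 1 FPKM in both groups. The part of other cell types in the rises was not tested. The 17 further rises, with log2 ratios of 0.59 to 0.91, include Myc, Efemp1, which went from 8.94 to 16.0 FPKM (0.84), Slc39a10, from 3.76 to 6.69 FPKM (0.83), and Spry2, from 0.972 to 1.64 FPKM (0.76).

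In ES cells, Prl2c5 of the prolactin family went from 2.29 to 3.88 FPKM (log2 ratio 0.76), the Iroquois homeobox gene Irx2 from 1.53 to 2.39 FPKM (0.64) and the homeobox gene Meis1 from 2.24 to 3.38 FPKM (0.59). These 3 were the only isolated loci past 1.5-fold in ES cells, all below 4 FPKM. Prl2c5 has close copies in the genome, so its reads may be shared. Sox2 and Klf4, factors of the pluripotent state, stayed within 1.5-fold, with log2 ratios of 0.06 and -0.13.

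Falls at isolated loci were shared between MEFs and hepatocytes in shares near those of all loci. Of the 66 loci lower in MEFs and the 22 lower in hepatocytes, 5 were in both lists, which is 7.58% of the first and 22.7% of the second, against 95 shared over all loci, or 9.87% and 15.7% of the respective lists. Arrdc3 went from 10.1 to 6.70 FPKM in MEFs (-0.60), Slc16a7 from 1.16 to 0.648 FPKM (-0.84), Sorl1, a sorting receptor, from 1.78 to 1.04 FPKM in MEFs (-0.78) and from 3.94 to 2.47 FPKM in hepatocytes (-0.68). Gda, guanine deaminase, went from 2.87 to 1.64 FPKM in MEFs (-0.81) and from 1.08 to 0.689 FPKM in hepatocytes (-0.65), and Cxcl12 from 11.3 to 7.52 FPKM in hepatocytes (-0.59). Sorl1 was also below 1 in ES cells, at 4.84 and 3.49 FPKM (-0.47), within 1.5-fold. Upward, Bdnf was the only shared locus, at 14.1 and 22.4 FPKM in MEFs (0.66), which is 4.55% of 22 and 4% of 25. Over all loci 205 were shared, or 23.5% and 31.0%. Of the 22 loci higher in MEFs, only 10 reached 1 FPKM in hepatocytes, where 7 had a ratio above 1. Of the 25 higher in hepatocytes, 23 reached 1 FPKM in MEFs, where 14 had a ratio above 1.

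Of the members, 3 changed in opposite directions. Epha4 went from 10.9 to 5.71 FPKM in MEFs (-0.93) and upward in hepatocytes. Avpr1a, a vasopressin receptor gene, went from 9.05 to 4.31 FPKM in MEFs (-1.07) and from 10.5 to 16.2 FPKM in hepatocytes (0.63). Bdh1 went from 1.37 to 2.13 FPKM in MEFs (0.64) and downward in hepatocytes. The difference between the cell types could not be tested for any of them, and opposite changes were not counted over all loci. Of the 66 loci lower in MEFs, 31 reached 1 FPKM in hepatocytes, where 19 had a ratio below 1, and 28 did so in ES cells, where 23 had a ratio below 1, at a median log2 ratio of -0.07. Of the 22 loci lower in hepatocytes, 14 reached 1 FPKM in MEFs, where 12 had a ratio below 1, at a median log2 ratio of -0.47. Among all isolated loci at 1 FPKM, 44.3% in hepatocytes, 58.5% in ES cells and 56.9% in MEFs had a ratio below 1.

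**Figure D5:**
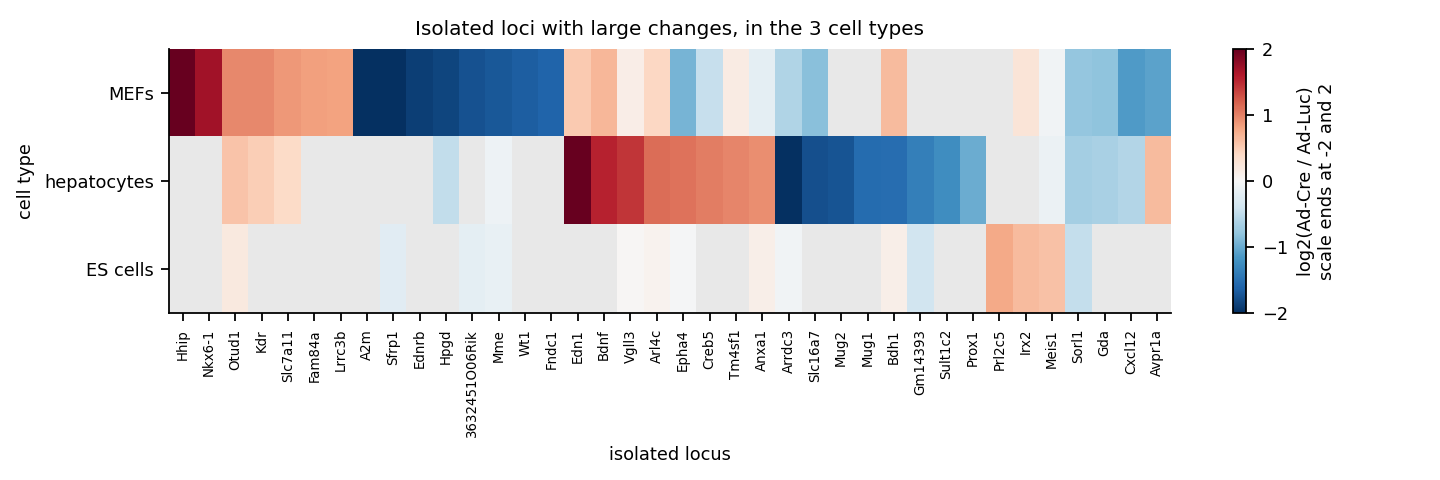
Log2 ratio of Ad-Cre to Ad-Luc FPKM (red higher, blue lower, scale ending at -2 and 2) of isolated loci with large changes, by cell type, with grey where both groups were under 1 FPKM. Most columns are strongly coloured in 1 cell type, and the blue columns shared by MEFs and hepatocytes are Arrdc3, Slc16a7, Sorl1, Gda and Cxcl12.

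Neighbouring isolated loci lay on the same side of 1 about as often as on opposite sides. In MEFs, 72 pairs of adjacent isolated loci were both at 1 FPKM, and 38 (52.8%) had ratios on the same side of 1. In 2 pairs both loci were lower, Lrig3 with Slc16a7 and Rcn1 with Wt1, in 0 pairs both were higher and in 1 pair they were opposite. In hepatocytes 27 of 50 pairs (54.0%) were on the same side, with Mug1 and Mug2 both lower and Arl4c with Sh3bp4 and Spry2 with Trim52 both higher, and in ES cells 15 of 34 (44.1%). These pairs were listed after their values were seen. The nearest protein-coding neighbour of a lower locus in MEFs reached 1 FPKM in 42 of 66 cases, and 4 of these 42 (9.52%) were lower too, beside 8.47% of all loci. Lrig3 and Slc16a7 are each nearest to the other, so this pair enters the count from both sides. In hepatocytes 2 of 12 such neighbours of lower loci were lower (16.7%) and 3 of 18 of higher loci were higher (16.7%), beside 5.54% and 6.07% of all loci. The 2 lower neighbours are Mug1 and Mug2, each nearest to the other. They are thus 1 pair counted from both sides, of close copies whose reads may have been split.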

How the data were processed

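The deposited tables hold, for each cell type, 1 FPKM value per gene and group, which the authors estimated from all samples of the group. The tools in the submitters' processing notes include TopHat2 2.0.13 for alignment and Cuffdiff 2.2.0, with mm10 as the build. The libraries were made from total RNA with a stranded kit. The control column of the ES table is named FS and was taken as the ES Ad-Luc group. The tables also hold the authors' own fold changes, test statistics, p-values and q-values, and 9 shorter tables repeat called genes, and none of these was used. Read depth per sample is unknown, so no floor or counting interval is given.

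Loci were read as deposited, with starts counted from 0 as a match with RefSeq starts showed, and 1 was added to print them. A locus as given may extend past its gene. Gaps were measured between loci of rows typed protein-coding, and a locus needed a neighbour on each side. Ratios had no pseudocount. Other loci of equal level were weighted within bins of mean FPKM with limits at 1, 2, 5, 10, 20, 50 and 100. Intervals are exact Clopper-Pearson for shares and binomial order statistics for medians, at 95%. The members, gene lists and gap classes were chosen with earlier results of these data known. Named genes are the 8 largest rises and falls past 1.5-fold per cell type, members past 1.5-fold the same way or in opposite directions in 2 cell types, the 6 highest levels per cell type, the 5 widest gaps, those nearest the limit, up to 4 per gene class, and Ssu72. Some genes that this rule selects are not reported here. The macrophage list (4 of 5 symbols matched) had summed levels of 19.1 and 26.4 FPKM in MEFs and 12.0 and 10.1 FPKM in hepatocytes, and the stellate list 7.38 and 3.03 FPKM in MEFs and under 1 FPKM in hepatocytes. The scripts were tested on simulated loci and ratios. Analyses used Python 3.11.15, pandas 2.3.3 and scipy 1.17.1.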

Additional observations from a re-analysis of the deposited data

How the results depend on the processing

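Of 150 recomputed shares and medians, 135 stayed within the interval of the reported value. The excess of lower over higher isolated loci in MEFs, and their excess over other loci of equal level, held under every alternative that recomputed the shares, which the weighting by span did not. At 2-fold, 0.735% were higher (3 loci, against 22) and 5.64% lower (23, against 66) in MEFs. The hepatocyte shares were 1.90% (6, against 25) and 2.22% (7, against 22), and in ES cells 0 were higher. With a pseudocount of 1 FPKM the shares were 2.70% higher (11 loci) and 12% lower (49) for MEFs, 4.43% (14) and 3.80% (12) for hepatocytes, and 0 higher for ES cells. At 5 FPKM or more and at 10 FPKM or more, 0 isolated loci were higher in ES cells, and at 10 FPKM or more 4.43% were higher in hepatocytes. With gaps of 200000 bp, which left 299 loci, 8.28% were higher in MEFs, above the 7.10% of others of equal level. Centred on the median gene, the MEF median was -0.10. Counts of lower loci in MEFs changed with the number of loci that entered, from 25 of 169 with gaps of 200000 bp to 136 of 891 with gaps of 50000 bp, and were 40 of 292 at 5 FPKM and 31 of 204 at 10 FPKM. The counts of higher loci in MEFs were 14, 40, 13 and 7 under these settings. Those of higher and lower loci in hepatocytes were 14 and 6, 53 and 52, 13 and 13, and 7 and 8. In ES cells 2 and 13 were higher with the wider and the narrower gaps, and 2 after centring. With rows of every gene type as neighbours 41 of 250 MEF loci were lower and 15 higher, with 14 and 13 for hepatocytes and 0 and 1 for ES cells, and with neighbours from GENCODE vM21, an alternative chosen after seeing the data, 54 of 337 were lower in MEFs. The weighting by level and span and the use of mixed gene types were also chosen after seeing the data. The difference from others of equal level in hepatocytes changed sign under some alternatives, with values from -0.02 to 0.05. No paired analysis was possible because the tables hold 1 value per group, and for the same reason no sample could be left out.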

Other observations

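Loci with 1 open side were also compared by which side was open, with strands from GENCODE vM21. In MEFs, 39 of 367 loci with an open 5' side of at least 100000 bp and a 3' neighbour within 10000 bp were lower (10.6%, 95% exact interval 7.67 to 14.2%) and 20 were higher (5.45%), with a median log2 ratio of 0.00 (-0.04 to 0.05). Of 259 loci with an open 3' side and a 5' neighbour within 10000 bp, 12 were lower (4.63%, 2.42 to 7.95%) and 12 were higher, with a median of 0.09 (0.03 to 0.12). In ES cells the medians were -0.03 (-0.05 to -0.01) and 0.02 (0.01 to 0.04), and in hepatocytes 0.01 for both. The isolated loci, with both sides open, were nearer to the first class in MEFs and ES cells. Loci with an upstream neighbour on the same strand within 10000 bp and of at least 5 FPKM were higher in 14.5% (12.5 to 16.6%) of 1162 cases in MEFs, 11.2% (9.49 to 13.1%) of 1223 in hepatocytes and 3.47% (2.49 to 4.69%) of 1154 in ES cells, against 5.39%, 7.91% and 0.98% of the isolated loci. Over all loci 7.66%, 6.07% and 1.87% were higher, and 8.47% were lower in MEFs. The side classes were not matched for level or length. The sides were chosen after seeing the data, no test between groups was possible, and the cause was not tested.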
